A study of Mus musculus with 4 samples.

Results

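Ventricular cardiomyocyte (CM) nuclei were examined in single-nucleus RNA libraries of the mouse right ventricle (RV). They numbered 10269, which was 19.3% of the 53090 barcodes deposited and 21.2% of the 48428 that passed the filters. Wild-type C57/BL6J mice had either a sham operation or a fistula between the abdominal aorta and the inferior vena cava, which loads the RV with extra volume (RVVO), on postnatal day 7, and the RVs were frozen on postnatal day 21. There were 2 sham and 2 RVVO libraries, named sham 1, sham 2, RVVO 1 and RVVO 2, and lists of 4 values keep that order. The study's methods describe injections of cyclosporine A or saline after surgery, the labels name no injection for these libraries, and the sources do not say whether each library is 1 mouse or several, so p-values measure only the spread between libraries. The sham libraries had the transcripts of female mice and the RVVO libraries those of male mice, so the effects of sex and of the fistula cannot be told apart here.

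CMs contract when calcium enters through L-type channels and releases more calcium from the sarcoplasmic reticulum through ryanodine receptors. The calcium binds troponin on the thin filament, and is then pumped back by SERCA2. In mice, CMs largely leave the cell cycle in the first weeks after birth, when they switch to fatty acid oxidation and to the adult forms of sarcomere proteins. A nucleus holds mainly unspliced and newly made RNA, so these counts describe nuclear transcripts and not the protein or the cytoplasmic RNA of the cell.

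The nuclei were selected on measured values. A barcode was kept with at least 200 genes and under 10% of its unique molecular identifiers (UMIs, the counted molecules) from mitochondrial genes. It was counted as a ventricular CM nucleus when Ryr2, the ryanodine receptor, and Cacna1c, the pore of the L-type calcium channel, together gave at least 1.5% of its UMIs and when it had at least 1 UMI of Rbm20 (a splicing regulator of titin), Mhrt (a non-coding RNA antisense to Myh7) or Fhod3 (a formin of the sarcomere). It could hold at most 3 UMIs of Myl7, Myl4, Sln and Kcnj3, which the rule takes as marks of atrial CMs. At most 1 UMI was allowed of Ptprb, Pdgfra, Pdgfrb and Mrc1, which mark endothelial cells (ECs), fibroblasts, mural cells and macrophages. The libraries gave 2105, 2664, 1663 and 3837 such nuclei, with 9668110, 13625464, 12398706 and 20237651 UMIs in all. Their median depth was 4017, 4348, 6930 and 4487 UMIs per nucleus, so RVVO 1 was the deepest, and their median mitochondrial share was 0.495%, 0.46%, 0.281% and 0.268%, lower in both RVVO libraries. Between 28 and 70 barcode sequences were shared by any pair of libraries.

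Nuclei lay close to each threshold. From 1 to 1.5% of UMIs from Ryr2 and Cacna1c was found in 204, 181, 65 and 311 barcodes just outside, against 282, 210, 175 and 792 from 1.5 to 2% just inside, counted where the other conditions were met. The median of this share was 1.26%, 1.23%, 1.29% and 1.30% outside and 1.79%, 1.77%, 1.81% and 1.79% inside. With 3 UMIs of the genes limited as atrial, 241, 209, 251 and 320 nuclei were kept, and with 4 such UMIs 161, 139, 167 and 183 were not. The most counted of these genes was Kcnj3, with 1904, 1645, 1695 and 1861 UMIs in CM nuclei, against 19, 261, 109 and 801 for Myl4. A nucleus near or over this limit is therefore not known to hold atrial transcripts. Over all CM nuclei the median share of Ryr2 and Cacna1c was 2.79%, 3.14%, 2.81% and 2.50% of UMIs.

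Ventricular CM nuclei made up 16.2% and 18.3% of the passing barcodes in the sham libraries and 20.2% and 30.4% in the RVVO libraries. The means were 17.3% ± 1.47 and 25.3% ± 7.21 (SD, n = 2 each), a difference of 8.01 percentage points. An exact two-sided permutation test gave p = 0.3333, which is the smallest p that 2 libraries against 2 allow, so this comparison could not reach 0.05. The value depended on the rule. The limits on atrial and other-cell UMIs are absolute numbers, which a deeper nucleus exceeds more easily, and in RVVO 1, 790 nuclei (9.58% of passing barcodes) were left out by the atrial limit alone, against 4.72%, 3.56% and 4.33% in sham 1, sham 2 and RVVO 2. Without the 2 upper limits the shares were 24.8%, 24.4%, 38.7% and 39.4%, a difference of 14.4 points, and the RVVO libraries came to lie close to each other. Shares were also taken after thinning, which only barcodes with enough UMIs allow. Of the 12982, 14564, 8247 and 12635 passing barcodes, 7669, 8141, 7211 and 10878 could be thinned to 2000 UMIs, so a larger part was left out in sham. Thinned to 1000 UMIs the shares were 26.4%, 26.8%, 37.2% and 37.6%, and at 2000 UMIs they were 33.4%, 35.4%, 39.7% and 40.8%. With a threshold of 3% for Ryr2 and Cacna1c they were 6.45%, 10.5%, 7.76% and 6.69%, and the RVVO mean was then 1.24 points below the sham mean. Where only barcodes at or above the highest of the libraries' lowest UMI counts were used, the shares were 20.4%, 24.1%, 21.5% and 30.4%, a difference of 3.67 points with overlapping groups (exact permutation p = 0.6667). Without RVVO 2 the difference was 2.91 points. A share of barcodes also moves with how many nuclei of other types were recovered, which cannot be told apart here from the number of CMs.

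**Figure D1:**
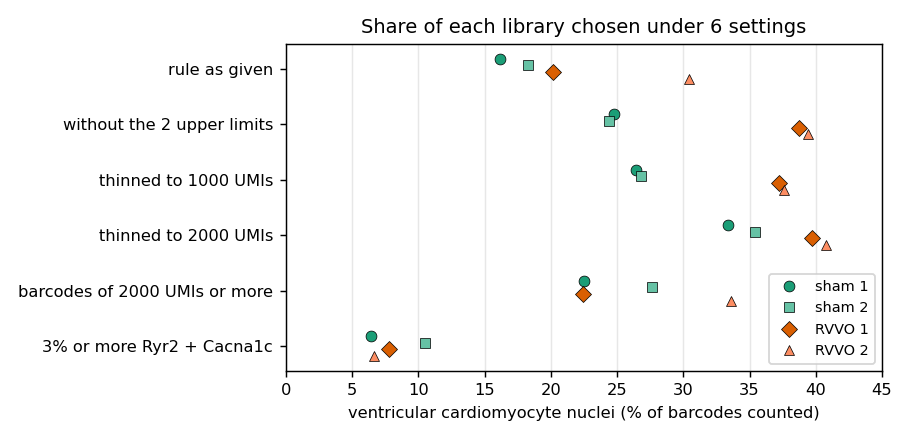
Share of each library's barcodes counted as ventricular CM nuclei (x axis, percent) under 6 settings (y axis), with 1 point per library. The RVVO libraries lie above both sham libraries with the rule as given, without its upper limits and after thinning, but not among unthinned barcodes of 2000 UMIs or more or at a threshold of 3%.

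The markers that the rule did not use were compared with the 33393 other nuclei, which failed the threshold on Ryr2 and Cacna1c. Since the same nuclei were chosen by their expression, these values are a description and were not tested. A ratio is given as the log2 of CPM + 1 in CM nuclei over that in other nuclei of the same library, averaged over the 4 libraries, where CPM is the count per 1000000 UMIs of the summed population. Myh7, the slow myosin heavy chain, had 392, 363, 437 and 376 CPM in CM nuclei and 33.1, 20.8, 52.6 and 52.6 CPM in other nuclei, a log2 ratio of 3.36. After thinning to 2000 UMIs, 53.3%, 48.9%, 55.5% and 50.9% of CM nuclei had a Myh7 UMI, against 2.78%, 1.67%, 3.90% and 4.27% of EC-marked nuclei. Myh7 overlaps Mhrt on the opposite strand (chromosome 14 of GRCm38, 54970684 to 54994626 for Myh7 and 54968678 to 54974349 for Mhrt), and no source used here says if strand was used to count, so their UMIs may be shared.

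The 20 largest ratios among genes with at least 50 CPM in every library lay between 2.94 and 3.37 and included all 5 genes the rule required. Beside those 5 and Myh7 they included regulators of metabolism (Ppargc1a, 3.12, a coactivator of mitochondrial genes; Ppara, 3.06, a receptor for fatty acids; Esrrb, 3.04, an oestrogen-related receptor), a myosin (Myh7b, 3.11), sarcomere and LIM proteins (Fhl2, 3.04; Mypn, 2.96), a sodium channel regulator (Fgf13, 2.96), a glutamine transporter (Slc38a3, 3.04), and Fstl4, Rnf207, Kbtbd12, Prune2 and Wnk2 (2.94 to 3.32). Fhl2 had 6293, 5661, 5364 and 4516 CPM in CM nuclei and 771, 440, 847 and 658 in other nuclei. Ppargc1a had 10265, 10868, 4809 and 8912 CPM against 1153, 882, 703 and 1180. For each of these genes every library of CM nuclei stood above every population of other nuclei.

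Not all heart muscle genes had such ratios. Tnni3, the adult troponin I, had 1500, 1040, 1052 and 1228 CPM and a log2 ratio of -0.14, and Myl2, the ventricular regulatory light chain, had a ratio of -0.19. Myl3 had -0.34 and Actc1, cardiac actin, -0.11. Myh6, the fast myosin heavy chain, had 12514, 9960, 12486 and 10031 CPM against 9351, 5833, 6291 and 5918 in other nuclei, a ratio of 0.74. Myh6 was thus higher in the CM nuclei of every library, while the other 4 genes had ratios slightly below 0, and the part of free RNA in this was not tested. The 26 nuclear genes of the respiratory chain and citric acid cycle had a median ratio of -0.27, against 1.32 for 24 sarcomere genes tested, 1.41 for calcium handling, 1.06 for ion channels, 1.38 for the intercalated disc and 1.14 for transcription factors of the heart muscle. Markers of ECs, fibroblasts, mural cells and macrophages were mostly low, with a median ratio of -3.65 for 14 EC genes, -2.26 for 12 fibroblast genes, -2.56 for 12 mural genes and -2.33 for 12 macrophage genes. Acta2, the most counted mural marker, was higher in CM nuclei, at 0.85. The 3 adipocyte markers tested had a median ratio of 0.48, with Plin4 at 2.35 and Pparg at -3.63. The summed level of EC markers was 543, 383, 326 and 378 CPM in CM nuclei, against 11339, 12985, 12535 and 11464 CPM in EC-marked nuclei. In the list of heart muscle transcription factors Hand1 was at 0 in every library, and Isl1 had at most 0.0988 CPM.

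**Figure D2:**
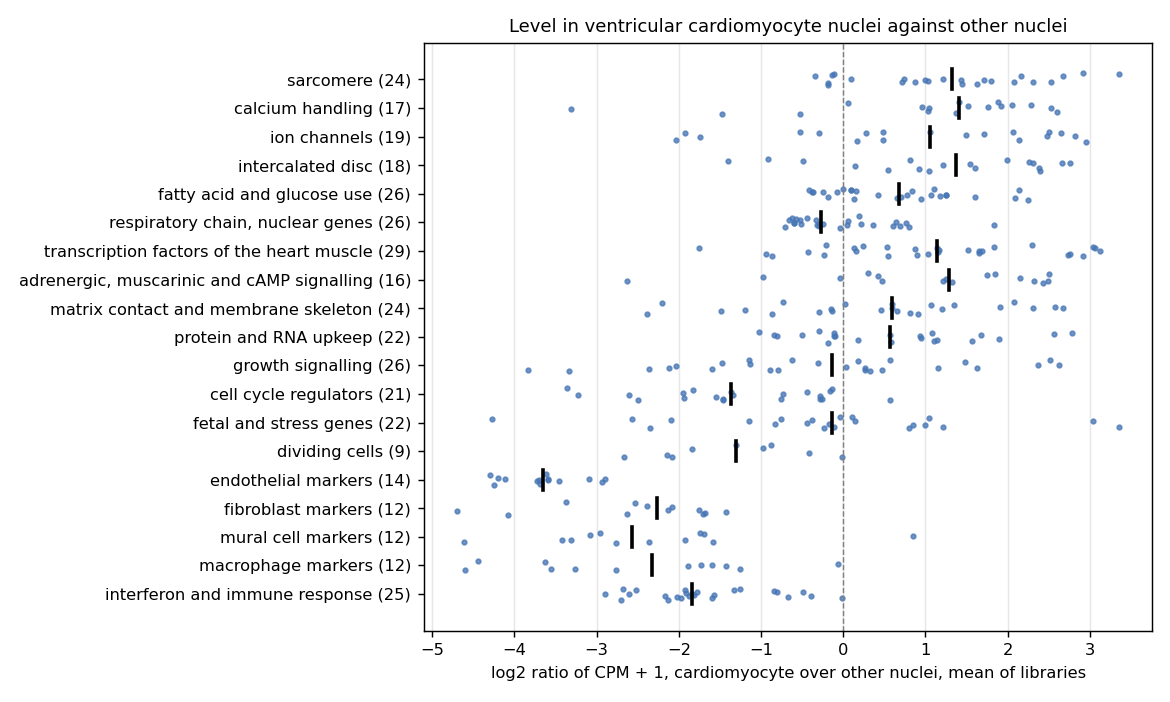
Level in CM nuclei against other nuclei, as the log2 ratio of CPM + 1 averaged over the 4 libraries (x axis), for the tested genes of 19 lists (y axis, number of genes in parentheses). Points are genes and bars are medians, from 1.41 for calcium handling to -3.65 for EC markers, with several sarcomere genes and most respiratory chain genes near or below 0.

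Promoters were read for the genes with the largest ratios, since a shared sequence can be seen there. RefSeq promoters (GRCm38.p6, 250 bases before to 50 after the start) were found for 15 of the 20 genes. A site for MEF2, a transcription factor of muscle genes, was searched for on both strands and found in 3 of them (Fhl2, Kbtbd12 and Fgf13), in 4 of 19 sarcomere genes (Ttn, Mybpc3, Myoz2 and Synpo2l) and in 2.60% of the 10124 genes tested that had a RefSeq promoter. The upstream stretches of the first pair are shown 5′ to 3′ with the MEF2 match in capitals, from chr1:43196762-43196881 (minus strand) and chr6:88627430-88627549 (minus strand).
Fhl2: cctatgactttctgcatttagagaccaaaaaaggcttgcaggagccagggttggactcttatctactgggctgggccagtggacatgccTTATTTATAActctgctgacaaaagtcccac
Kbtbd12: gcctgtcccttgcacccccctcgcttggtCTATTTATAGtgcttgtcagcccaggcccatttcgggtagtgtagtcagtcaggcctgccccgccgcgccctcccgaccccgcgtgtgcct
Both stretches end at the base before the start of transcription. The site TCAAGGTCA, which oestrogen-related receptors bind, was found in 1 of the 15 (Myh7b) and in 0.326% of the genes tested that had a RefSeq promoter. A letter match describes the sequence, and whether a factor binds there was not measured.

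The CM nuclei with at least 2000 UMIs were thinned to that depth and clustered, which gave 9 sub-clusters. The genes that lead a sub-cluster were used to form it and are a description. Sub-clusters 1 to 4, which held most of the nuclei, each came largely from 1 library. Sub-cluster 1 held 77.7% of RVVO 2 and at most 5.31% of another library, sub-cluster 2 held 69.9% of sham 2, sub-cluster 3 held 81.6% of RVVO 1 and sub-cluster 4 held 79.6% of sham 1. A sub-cluster mostly of 1 library may be that library and not a kind of CM. Sub-cluster 1 was led by Nppa, Fmn1, Snx17, Mgp and Apoe, sub-cluster 2 by Irs2, Hsph1, Pdk4, Bnip3 and Shb, sub-cluster 3 by the globin genes Hba-a2, Hba-a1, Hbb-bt and Hbb-bs, which mark red blood cells, and sub-cluster 4 by Gbp7, Ddx60, Iigp1, Cd274 and Igtp, genes known to respond to interferon.

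The smaller sub-clusters were present in every library. Sub-clusters 5, 6 and 9 held 397, 340 and 58 nuclei, of which 78.8%, 82.4% and 77.6% had doublet scores among those removed in the alternative without doublets, against 0.405 to 4.26% in the others. They were led by Cyyr1, Ldb2 and Flt1, which are used in ECs, by Gpc6, Pcdh9 and Pid1, and by Wdr17, Gpm6a and Muc16, of which Gpm6a and Muc16 are used in the epicardium. Sub-cluster 7 held 247 nuclei, 2.14%, 2.76%, 3.03% and 2.71% of the libraries. It was led by Slit2, Sema3a and Slit3, guidance cues of axons and vessels, Ephb1, an ephrin receptor, and Etv1, a transcription factor known from fast-conducting CMs. Slit2 had 933 CPM in it and 20.2 CPM in the remaining CM nuclei, and Etv1 had 217 against 10.1. Sub-cluster 8 held 165 nuclei, 0.579%, 3.12%, 1.85% and 1.51% of the libraries, and was led by Ankrd1 and Xirp2, which encode proteins of the stretch and injury response of muscle, Creb5, Tox3 and Thsd7a. Ankrd1 had 1321 CPM in it and 94.5 CPM outside, and Xirp2 1715 against 174. The shares of sub-clusters 7 and 8 overlapped between sham and RVVO.

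**Figure D3:**
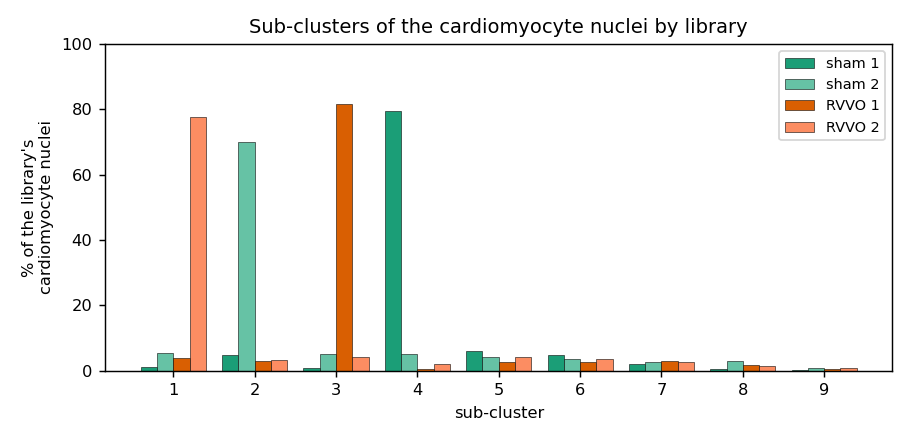
Share of each library's thinned CM nuclei (y axis, percent) in each of 9 sub-clusters (x axis), with 1 bar per library. Sub-clusters 1 to 4 each hold most of 1 library, from 69.9 to 81.6%, and sub-clusters 5 to 9 hold small shares of all 4.

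Genes were then compared between RVVO and sham in CM nuclei, on UMIs summed per library. Of 13932 genes tested with edgeR's quasi-likelihood test, 7 passed an adjusted p of 0.05 (0.0502%), 5 higher and 2 lower in RVVO, and 6 of them were genes of the sex chromosomes that tell female from male. Xist, which silences an X chromosome in females, had 1432, 1396, 0.887 and 0.642 CPM (adjusted p = 6.23e-05 by edgeR). Tsix, antisense to it, had 225, 213, 6.13 and 3.31 CPM. Uty, on chromosome Y, had 0.414, 0.0734, 359 and 379 CPM, and Ddx3y had 0.103, 0.0734, 96.5 and 115 CPM. Eif2s3y and Kdm5d had no UMI in the sham CM nuclei, so with 3 counts over both sham libraries as the floor they were at least 779-fold and at least 505-fold higher in RVVO. By DESeq2, Kdm6a and Kdm5c, X-linked genes that escape silencing and were picked here after their values were seen, were lower in RVVO as well, with 199, 227, 128 and 122 CPM for Kdm6a (adjusted p = 0.0127 by DESeq2 and 0.609 by edgeR) and 187, 196, 111 and 121 CPM for Kdm5c.

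The remaining gene was Snx17, a sorting nexin that returns receptors from endosomes to the cell surface (chromosome 5 of GRCm38, 31193227 to 31199143, plus strand). It had 10.1, 9.47, 94 and 120 CPM in CM nuclei, from 98, 129, 1166 and 2425 UMIs. Both RVVO libraries stood far above both sham libraries, with a log2 fold change of 3.41 (SE 0.174, adjusted p = 0.00226 by edgeR). EC-marked nuclei had 19.9, 12.1, 84.2 and 108 CPM, and its log2 fold change was 2.50 (adjusted p = 0.0127 by edgeR), so the difference was counted there too. The part of free RNA in this was not tested. The neighbouring genes on the other strand, Eif2b4 with 27.1, 28.9, 31 and 36.6 CPM and Zfp513 with 2.38, 2.35, 3.55 and 2.87 CPM, did not pass the test.

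Among the other autosomal genes none passed by edgeR, although 906 of all genes had an unadjusted p under 0.05 and DESeq2 called 71 (0.524%), 16 higher and 55 lower. With no filter on low counts edgeR called 366 of 20830 genes (1.76%), 123 higher (0.59%) and 243 lower (1.17%), and calls in that setting are given below as passing without the filter. The smallest p-values belonged to Fam110b, Pdk4, Impact, Abcb4, Ddx58, Tom1l1, Cdhr3, Adcy1 and Fosl2. Pdk4 encodes the kinase that turns off pyruvate dehydrogenase and so spares glucose when fatty acids are burned. It had 1072, 1304, 558 and 572 CPM, and its log2 fold change was -1.11 (SE 0.145, adjusted p = 0.388 by edgeR and 1.27e-05 by DESeq2). Fam110b had 16.2, 17.2, 35.8 and 36.8 CPM (log2 fold change 1.08), and Cdhr3, a cadherin, had 7.34, 5.06, 21.5 and 16.5 CPM (1.59). In these genes the libraries of a group lay close together and the groups did not overlap. Such a pattern was common, since in 22.5% of the genes tested the 2 RVVO libraries were both above the sham libraries, and in 14.6% both below.

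No contractile gene passed by edgeR, and Actn2 passed without the filter. The median log2 fold change was 0.02 for 24 sarcomere genes, against 0.00 for all genes tested, with 12 genes above 0 and 12 below. Ttn, the giant spring of the sarcomere, had 20208, 21293, 21477 and 19484 CPM, and Myh6 had a log2 fold change of -0.03 (SE 0.206). Actn2, the actinin of the Z-disc, was the exception by DESeq2, with 2340, 2389, 1461 and 1471 CPM and a log2 fold change of -0.72 (SE 0.128, adjusted p = 0.0136 by DESeq2). Both RVVO libraries were far below both sham libraries in Actn2. Tnni3 had -0.19 (SE 0.203) and Mybpc3, which holds myosin to the thick filament, had 0.30 (SE 0.121).

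In calcium handling the median over 17 genes was -0.00, with 3 genes under an unadjusted p of 0.05, all lower, beside 3.73% of all genes tested that were lower and 2.77% that were higher at that p. Atp2a2, which encodes SERCA2, had 5285, 4839, 4572 and 4178 CPM, and its log2 fold change was -0.24 (SE 0.151, unadjusted p = 0.158 by edgeR). Jph2, which joins the reticulum to the T-tubules, had 1182, 1247, 839 and 846 CPM (-0.56, SE 0.124). It did not pass by either tool, but both it and Sorcs2 passed without the filter. Sorcs2 had 77.9, 59.3, 34.8 and 26.1 CPM (-1.21, adjusted p = 0.00179 by DESeq2). The list holds it, but it encodes a sorting receptor of the sortilin family and not a calcium channel or pump. Its fall is therefore not read as a change of calcium handling. Slc8a1, the sodium-calcium exchanger, had 4948, 5362, 5022 and 5761 CPM, with sham and RVVO overlapping. Ryr2 and Cacna1c, which chose the nuclei, had 16457, 19044, 19253 and 15014 CPM and 13035, 13983, 10233 and 11401 CPM, given as a description because the rule used them.

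Ion channels had a median of -0.13 over 19 genes, which was -0.02 without sham 2 and -0.16 without sham 1. None passed by either tool, while 1 of 21, Cacna1g, was lower without the filter. Kcnd2, a subunit of the transient outward potassium current, had 6109, 5624, 5139 and 4315 CPM, both RVVO libraries below both sham libraries (unadjusted p = 0.0846 by edgeR). Kcnj2, a subunit of the inward rectifier, had 31.5, 27.4, 36.1 and 27.6 CPM, with sham and RVVO overlapping. Markers of the conduction system had a median of 0.40 over 11 genes, which was 0.23 without RVVO 2, and none passed by edgeR or DESeq2. Genes that tie CMs to the matrix and line the membrane had a median of -0.00 over 24 genes. The most counted of them, Dmd, which encodes dystrophin, had 9894, 9685, 11712 and 10913 CPM. Genes of the intercalated disc, which joins CMs end to end, had a median of 0.05 over 18 genes. It was -0.06 without RVVO 1 and 0.14 without RVVO 2. Ctnna3, a catenin and the most counted of the disc genes, had 5431, 5997, 6489 and 5369 CPM, with sham and RVVO overlapping. Gja1, the main gap junction protein, had 389, 415, 360 and 423 CPM and did not separate the groups. Adrenergic, muscarinic and cAMP signalling had a median of -0.00 over 16 genes. Adra1a had 156, 152, 228 and 191 CPM, and Pde4d, which breaks down cAMP, 4947, 4327, 6613 and 5951 CPM. Both were higher in the RVVO libraries, at unadjusted p = 0.0297 and 0.0447 by edgeR. The log2 fold change of Pde4d was 0.41 in CM nuclei, 0.70 in EC-marked nuclei and 0.77 in other nuclei, so its rise was not particular to CM nuclei.

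No gene of metabolism passed by edgeR, and Pdk4 and Ppargc1a passed, both lower, without the filter. Over 26 genes of fatty acid and glucose use the median was -0.03, with 6 genes higher and 1 lower in both RVVO libraries than in both sham libraries (beside 22.5% and 14.6% of all genes tested), and apart from Pdk4 none was under an unadjusted p of 0.05. Cd36, the fatty acid carrier, had 1541, 1617, 1674 and 1695 CPM, slightly higher in both RVVO libraries. The nuclear genes of the respiratory chain had a median of -0.06, which was 0.25 without sham 1 and -0.31 without sham 2, and their summed level was 11929, 8312, 8730 and 10901 CPM, highest in sham 1 and RVVO 2. Slc25a4, the carrier that exchanges ADP for ATP and the most counted of them, had 1501, 890, 1085 and 1276 CPM. Cox4i1, a subunit of cytochrome oxidase, had 814, 415, 401 and 641 CPM. Of the regulators, Ppargc1a was lowest in RVVO 1, with a log2 fold change of -0.66 (SE 0.282, unadjusted p = 0.0564 by edgeR). Ppara had 651, 648, 575 and 470 CPM. Klf15, a regulator of lipid and amino acid use, had 57.7, 65.4, 50.9 and 42.5 CPM, and Prox1 had 92.7, 95, 112 and 132 CPM, and both were under an unadjusted p of 0.05. The median over 29 transcription factors was -0.12, and -0.06 without sham 2.

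Genes of the fetal program and of stress had a median of -0.11 over 22 genes, and none was under an unadjusted p of 0.05, while Nppa passed, higher, without the filter. Nppa, which encodes the atrial natriuretic peptide, had 6.21, 49.7, 19 and 159 CPM, higher in sham 2 and RVVO 2 than in their group mates. Of the 4 atrial genes limited by the rule, Myl7, Myl4 and Sln followed the same order, with 0.414, 12.6, 3.15 and 29 CPM for Myl7 and 0.103, 5.72, 0.887 and 13.1 CPM for Sln. Kcnj3, the most counted of the 4, did not, with 197, 121, 137 and 92 CPM. In other nuclei Kcnj3 had 67.8, 57.6, 82.9 and 75.1 CPM, so it was higher in the CM nuclei of every library. After thinning to 2000 UMIs a Nppa UMI was found in 1.10%, 9.45%, 4.39% and 29.2% of CM nuclei and in 1.19%, 15.9%, 10.6% and 41.2% of EC-marked nuclei, so the share in CM nuclei was not above that of cells that should lack Nppa. No expression of Nppa by CM nuclei was read from it. Nppb had 16.3, 25.9, 15.3 and 31.3 CPM, Ankrd1 118, 122, 92.6 and 118 CPM, and Myh7 a log2 fold change of 0.08 (SE 0.144).

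Genes of dividing cells were near 0. Of 20 listed, 9 had enough UMIs to be tested, and none passed by edgeR or by DESeq2, while without the filter 1 of 20, Cenpf, passed and was higher. Cenpf, a kinetochore protein, had 7.86, 5.28, 11.6 and 14.1 CPM (log2 fold change 0.95, SE 0.255, unadjusted p = 0.00967 by edgeR), while the median of the 9 was -0.35. The sign of that median turned with the setting, to 0.64 without sham 2 and 0.14 with members chosen after thinning, and it was -0.04 without RVVO 1 and -0.01 over 20 genes by DESeq2. Aurkb, a kinase of cell division, had 1, 4, 1 and 0 UMIs over all CM nuclei of the 4 libraries, and was too low to test. Ect2, needed for cytokinesis, had 1.24, 2.57, 1.77 and 1.38 CPM, with sham and RVVO overlapping. Mki67 was found in 0.290%, 0.178%, 0.185% and 0.356% of CM nuclei thinned to 2000 UMIs and in 1.03%, 0.651%, 0.891% and 0.502% of EC-marked nuclei, so its level in CM nuclei was not above that of another cell type at this depth. Among 21 cell cycle regulators tested none was under an unadjusted p of 0.05, with a median of 0.01. Cdk6 had 188, 202, 150 and 175 CPM, and Meis1, which holds CMs out of the cycle, 178, 155, 212 and 174 CPM. Growth signalling had a median of 0.08 over 26 genes, with 1 gene lower and 1 higher at an unadjusted p under 0.05 by edgeR. Of all genes tested 3.73% were lower and 2.77% higher at that p. Erbb4, the neuregulin receptor of CMs, had 2090, 2109, 2379 and 2101 CPM. Vegfa, by which CMs signal to ECs, had 899, 909, 667 and 703 CPM (log2 fold change -0.43, SE 0.121, unadjusted p = 0.011 by edgeR).

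**Figure D4:**
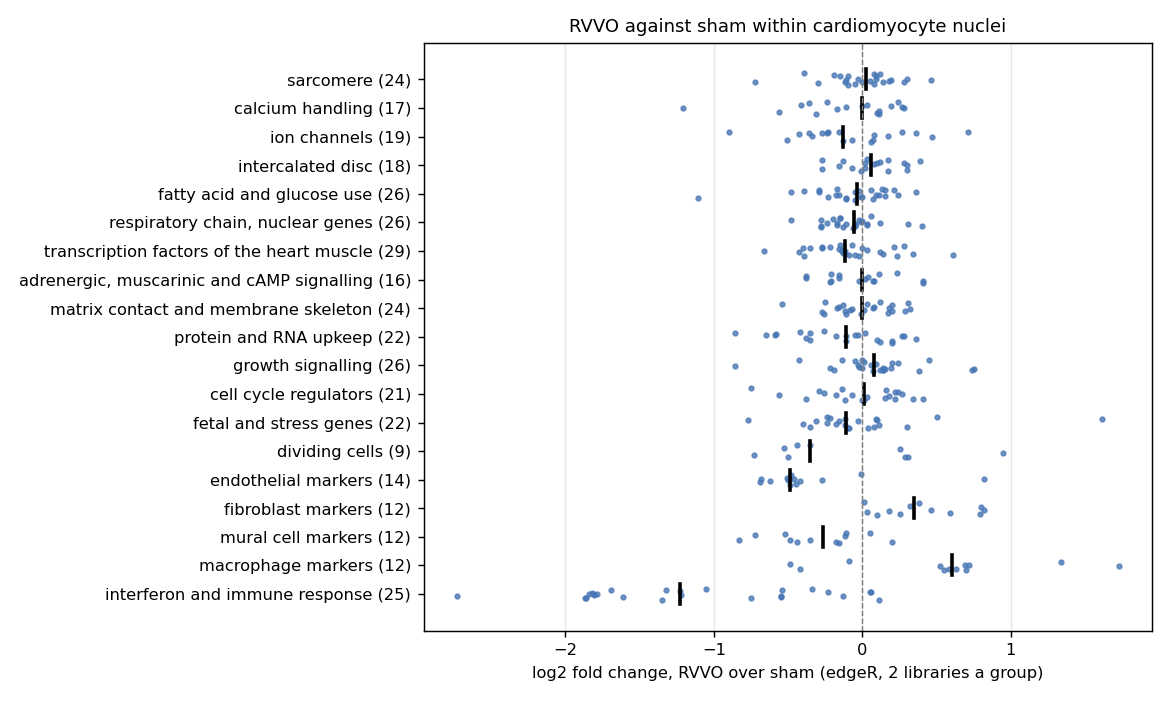
Log2 fold change of RVVO over sham in CM nuclei (x axis, edgeR, 2 libraries a group) for the tested genes of 19 lists (y axis, number of genes in parentheses). Points are genes and bars are medians, which lie within 0.13 of 0 for the muscle lists down to stress genes and reach -1.23 for interferon and immune response genes.

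Genes of the interferon and immune response had the lowest median of the lists with more than 1 gene tested. Of 25 genes tested, 22 had a negative log2 fold change, the median was -1.23 against 0.00 for all genes tested, and 13 were under an unadjusted p of 0.05 in the lower direction and 0 in the higher, beside 3.73% and 2.77% of all genes tested. The 2 RVVO libraries were both below the sham libraries in 16 of the 25 genes and both above in 1, beside 14.6% and 22.5% of all genes tested. None passed the adjusted test of edgeR, and 7 were lower by DESeq2, beside 0.406% of all genes it tested, namely Ifit1, Ifit2, Ifit3, Oasl2, Irf7, Bst2 and Ddx58. Without the filter edgeR called 16 of 27, all lower, beside 1.17% of all genes tested in that setting. Ifit3, an antiviral RNA-binding protein, had 7.14, 4.40, 0.484 and 1.19 CPM, and its log2 fold change was -2.73 (SE 0.477, adjusted p = 0.00179 by DESeq2 and 0.609 by edgeR). Oasl2 had 19.9, 25.8, 4.36 and 8.50 CPM, and Ddx58, which senses viral RNA, had 25.3, 22.5, 7.98 and 11.6 CPM. In these 3 genes every RVVO library was below every sham library.

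The size of this difference rested in part on single libraries. B2m, the light chain of MHC class I, had 184, 133, 56.2 and 168 CPM and H2-K1, a heavy chain, 186, 174, 74 and 218 CPM, so that only RVVO 1 was low. The median of the list was -0.58 without sham 1 and -0.88 without RVVO 1, and -1.96 without RVVO 2. The same genes were measured in EC-marked nuclei, where the median was -1.19 and Ifit3 had 51.8, 34.4, 7.33 and 7.91 CPM. The log2 ratio of CM to other nuclei had a median of -1.84 over the 25 genes, and the highest was that of Stat3, at -0.02. The summed level of the list was 1923, 1344, 782 and 1370 CPM in CM nuclei and 4947, 4387, 2364 and 3417 CPM in EC-marked nuclei. In the interaction test described below, which compares the RVVO effect between CM and other nuclei, none of the 27 genes of the list passed, and the median difference of the effects was 0.07. Within the CM nuclei EC markers had a median of -0.49 over 14 genes, none of which passed by edgeR or DESeq2, and without the filter 2 passed, Flt1 lower and Vwf higher. That median was -0.22 with high doublet scores removed, -0.16 without sham 1, -0.06 with members chosen after thinning and -0.01 without the upper limits, and the part of EC transcripts in the interferon values was not tested. Genes of the Ifit family and of MHC class I have near copies, between which reads may be split, so their single values are uncertain. With high doublet scores removed the median of the interferon list was -1.23.

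**Figure D5:**
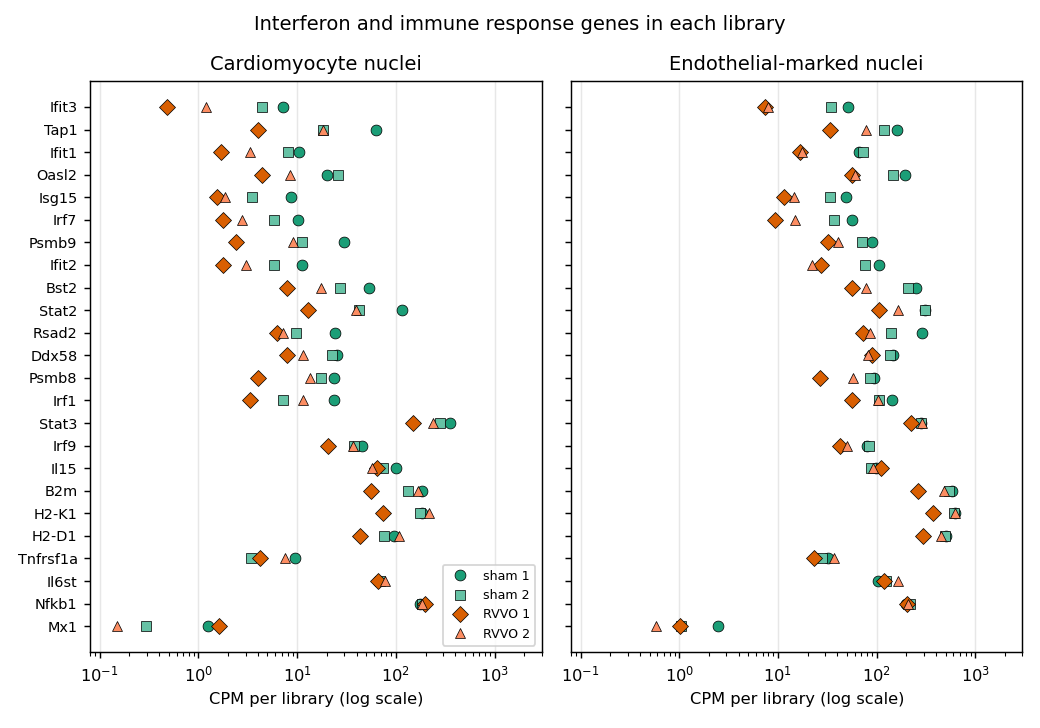
CPM of the tested interferon and immune response genes, all but 1 of the 25, in each library (x axis, log scale), in CM nuclei (left) and EC-marked nuclei (right), ordered by log2 fold change in CM nuclei. The upper genes, such as Ifit3, Ifit1 and Oasl2, have both RVVO libraries to the left of both sham libraries in both kinds of nuclei, while the lower genes overlap.

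The interferon-stimulated response element is a DNA site through which interferon switches on many of its target genes, though not all genes of this list are such targets. Its core, GAAA followed after any 2 bases by a further GAAA, was searched for on both strands in the RefSeq promoters of the 21 listed genes that had one. It was present in 8 of the 21 (38.1%), namely B2m, Bst2, Ddx58, Ifit1, Ifit3, Isg15, Rsad2 and Stat2, and in 3.74% of the 10124 genes tested in CM nuclei that had a RefSeq promoter. The list was drawn up from genes known for the interferon and immune response, so this share describes the list and not the difference between RVVO and sham. Whether a factor binds there was not measured. The stretches that hold it are shown for the 4 of these genes with the smallest adjusted p by DESeq2 among those with a match before the start, 5′ to 3′ on the strand of the gene with each match in capitals, a match on the reverse strand reading as TTTC and TTTC.
Ifit3: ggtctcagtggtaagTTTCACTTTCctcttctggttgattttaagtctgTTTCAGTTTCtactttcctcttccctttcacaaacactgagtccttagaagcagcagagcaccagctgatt
Bst2: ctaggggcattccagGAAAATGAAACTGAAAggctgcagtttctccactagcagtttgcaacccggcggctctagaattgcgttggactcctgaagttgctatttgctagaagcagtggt
Ifit1: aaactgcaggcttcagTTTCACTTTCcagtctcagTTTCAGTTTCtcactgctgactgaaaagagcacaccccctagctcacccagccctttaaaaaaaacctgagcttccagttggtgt
Isg15: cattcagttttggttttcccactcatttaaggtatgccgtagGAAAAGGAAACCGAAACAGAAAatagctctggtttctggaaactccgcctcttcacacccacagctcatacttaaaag
They lie at chr19:34583358-34583477 (plus strand), chr8:71537498-71537617 (minus strand), chr19:34640769-34640888 (plus strand) and chr4:156200819-156200938 (minus strand) of GRCm38.p6. Ifit3 and Ifit1 hold 2 separate copies, and in Bst2 and Isg15 the 2 and 3 copies overlap. Isg15, a ubiquitin-like protein, had 8.58, 3.52, 1.53 and 1.88 CPM, with an adjusted p of 0.0993 by DESeq2, and Bst2, which tethers budding viruses, had 53.6, 26.9, 7.82 and 17.3 CPM.

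Of 22 genes of protein and RNA upkeep, 6 were under an unadjusted p of 0.05 in the lower direction and 1 in the higher, beside 3.73% and 2.77% of all genes tested, none passed by edgeR or DESeq2, and the median was -0.11. Without the filter 4 passed, all lower, namely Fbxo32, Trim63, Hspa8 and Unc45b. Qk, a splicing regulator and the most counted of the 22, had 2006, 1900, 1724 and 1798 CPM. Fbxo32, a ubiquitin ligase of muscle wasting, had 333, 365, 239 and 216 CPM, and Trim63, a ligase of the same process, 478, 600, 336 and 405 CPM. Hspa8, a chaperone, had 269, 240, 151 and 197 CPM. Heat shock genes outside the list, picked after their values were seen, were lower by DESeq2, with Hsph1 at 34.5, 70.5, 16.9 and 10.5 CPM (adjusted p = 1.93e-05) and Hspa1a at 3.31, 7.63, 0.726 and 0.791 CPM (adjusted p = 0.00179). Sham 2 was the highest library for both, in EC-marked nuclei too, where Hsph1 had 74.9, 211, 40.2 and 31.4 CPM. The 18 genes tested of those that respond quickly to stimulation had a median of -0.05, with 9 above 0 and 9 below, and it was -0.41 without RVVO 2 and 0.16 without RVVO 1. Of the 18, 3 were under an unadjusted p of 0.05, all lower, beside 3.73% of all genes tested. Jun, the most counted of them, had 26.1, 36.9, 40.8 and 37 CPM, Fosl2 had 30.5, 30, 17.5 and 18.1 CPM and Nr4a3 had 30.9, 22.1, 2.66 and 9.34 CPM. Neither Fosl2 nor Nr4a3 passed by either tool, and both passed, lower, without the filter.

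Markers of other cells were counted in the CM nuclei of every library. All 12 fibroblast markers had a positive log2 fold change (median 0.35), with Dcn, a proteoglycan, at 94.6, 91.4, 128 and 204 CPM, and the summed level of the list was 511, 505, 626 and 902 CPM. The median was 0.11 without RVVO 2 and 0.68 without RVVO 1, and no fibroblast marker passed by edgeR or DESeq2, with 4 higher at an unadjusted p under 0.05 by edgeR, beside 2.77% of all genes tested. Those 4, Dcn, Gsn, Lum and Mgp, passed without the filter. Mural markers had a median of -0.27, with 10 of 12 below 0, and it was -0.66 without sham 2 and -0.43 without RVVO 2. Of them Rgs5 was lower without the filter. Macrophage markers had a median of 0.61 over 12 genes and a summed level of 239, 241, 213 and 254 CPM, and the median was 0.09 without RVVO 2. Rbpj, which is not specific to macrophages, gave most of that sum, with 174, 182, 141 and 132 CPM. It was lower in both RVVO libraries (log2 fold change -0.42, unadjusted p = 0.0162 by edgeR). The summed level therefore says little about macrophage transcripts. Lyz2, lysozyme, had 6.10, 5.87, 10.5 and 29.9 CPM (adjusted p = 0.0168 by DESeq2). Lyz2 and Cd163 were higher without the filter. Lep and Ucp1, of adipocytes, and Th, of neurons, were at 0 in every library. Globin genes were highest in RVVO 1, where Hbb-bs had 615 CPM against 197, 248 and 216 CPM in sham 1, sham 2 and RVVO 2, and 4 of them were higher without the filter, while the median of the erythroid and platelet list turned from 0.90 to -0.25 when RVVO 1 was left out. The part of these transcripts in the differences between RVVO and sham was not tested.

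The RVVO effect in CM nuclei was compared with that in other nuclei of the same libraries by an interaction term in edgeR, over 17029 genes. It passed an adjusted p of 0.05 in 2 genes (0.0117%), Tsix and Nxph1. Tsix overlaps Xist on the opposite strand, and had 203, 220, 0.856 and 0.474 CPM in other nuclei, close to CM nuclei in sham and below them in RVVO. Nxph1, a ligand of neurexins, had 4.24, 15.5, 2.02 and 1.83 CPM in CM nuclei and 0.906, 3.61, 3.16 and 3.49 CPM in other nuclei, and sham 2 gave most of its UMIs. The next genes by p were Dfna5, Ryr3, Vwc2, Nrxn3, Avil, Nr4a3, Rbfox1 and Mpp6, with adjusted p from 0.0548 to 0.0796 by edgeR. Rbfox1, a splicing regulator, had 713, 744, 696 and 689 CPM in CM nuclei, nearly level, and 227, 258, 464 and 429 CPM in other nuclei, a difference of effects of -0.91 (SE 0.136, adjusted p = 0.065 by edgeR). The 5 genes the rule required had a median log2 fold change of 0.51 in other nuclei, and their median difference of effects was -0.69. These values are a description, because the rule used the genes. The part of CM transcripts in the values of other nuclei was not tested.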

How the data were processed

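The members, the gene lists and the tests were chosen with earlier results of these data known. Nuclei were isolated from frozen RVs and sequenced with 10x Genomics 3′ v3 chemistry. The authors deposited unnormalised UMI counts per gene and barcode, aligned to GRCm38. The submitters' processing notes name Cell Ranger 3.0.1 and the file headers 5.0.0. The cited rule was applied per barcode, and counts of CM nuclei were summed per library. CPM divides by the summed total. RVVO and sham were compared with edgeR 4.0.16 (R 4.3.3; filterByExpr, TMM, quasi-likelihood test, Benjamini-Hochberg adjustment over all genes tested, called under 0.05). The effect in CM nuclei was compared with that in other nuclei by an interaction term with the library as a block. DESeq2 1.42.0 was an alternative. Fold changes rest on 2 libraries a group, and the scripts were tested on simulated data. EC-marked nuclei had at least 2 Ptprb UMIs, no Pdgfra, Pdgfrb or Mrc1 UMI and under 1.5% Ryr2 and Cacna1c. Doublets were kept. Scrublet's automatic threshold marked 1, 0, 1 and 0 barcodes, so it did not work, and an alternative removed the highest scores (0.8% per 1000 barcodes), which took 13.3%, 9.01%, 4.81% and 6.98% of CM nuclei. Sub-clusters were made with scanpy 1.11.5 and leidenalg 0.10.2.

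Genes to name were taken by rule from those that chose the nuclei, those the study names, the sex genes, the 4 most counted genes of each list, the 10 autosomal genes with the smallest p, the 20 with the largest ratios, the 10 with the smallest interaction p and 5 leading genes of each sub-cluster. Only some of these are named, and which of them was decided after their values were seen. The other list genes named, among them Jph2, Gja1, Cox4i1, Klf15, Fbxo32, Trim63, Hspa8, Isg15 and B2m, are outside the rule and, like those named as called without the filter on low counts, were also chosen after their values were seen. A few genes that this choice includes are not reported here by name, and they stay in the counts and medians. Promoters came from RefSeq and gene positions from GENCODE, on GRCm38.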

Additional observations from a re-analysis of the deposited data

Results flagged for a closer look

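The RVVO effect differed between CM nuclei and other nuclei of the same libraries in 2 genes by edgeR's interaction test. For Tsix the difference of the log2 effects was 2.80 (SE 0.218, adjusted p = 0.00112 by edgeR). The RVVO CM nuclei held 76 and 67 Tsix UMIs, and Tsix shares its locus with Xist, so reads of the pair may not be told apart. For Nxph1 the difference was -2.92 (SE 0.318, adjusted p = 0.0162 by edgeR), and sham 2 had 15.5 CPM against 4.24 CPM in sham 1. Without sham 2 its adjusted p was 0.0922. With EC-marked nuclei as the comparator neither passed, with an adjusted p of 0.16 for Tsix and 0.217 for Nxph1.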

How the results depend on the processing

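The difference in the share of CM nuclei was 14.4 points without the upper limits and -1.24 points at a threshold of 3% for Ryr2 and Cacna1c, and 2.91 to 13.1 points when a library was left out. With unthinned barcodes of at least 2000 UMIs, chosen after seeing the data, it was 2.97 points (22.5%, 27.6%, 22.4% and 33.6%), and the groups overlapped. The count of genes called between RVVO and sham was 71 with DESeq2 and 366 with no filter on low counts, and 8 to 20 when a library was left out (20 without sham 2, 11 without RVVO 1). The interaction test called 1 gene with EC-marked nuclei as the comparator, 9 with RLE size factors, 18 with DESeq2, 282 with no filter and 14 to 115 when a library was left out (115 without sham 1, 14 without sham 2, 84 without RVVO 1, 80 without RVVO 2). Genes that chose the nuclei are among these calls, namely Ryr2, Cacna1c, Rbm20, Mhrt and Fhod3 without sham 1, the same 5 and Kcnj3 with no filter, and Kcnj3 without RVVO 1. Myl4 and Myl7, which the rule limited, were both higher among the 366 genes called between RVVO and sham with no filter. The causes were not tested. Leaving out a library leaves 1 library in its group, which is assumed to vary like the others.

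With a library left out, the list median ran from -0.10 to 0.12 for sarcomere genes and -0.17 to 0.07 for calcium handling. It ran from -0.19 to -0.05 for stress genes and -0.02 to 0.09 for growth signalling. Of the named genes none that was called changed direction. Among uncalled genes, Kcnj2 turned to -0.02 with members chosen after thinning, -0.05 without the upper limits and -0.00 at the 3% threshold, and ran from -0.15 to 0.29 with a library left out. Ect2 turned to 0.34 with members chosen after thinning and 0.16 without the upper limits. With a library left out, the log2 fold change ran from -0.75 to 0.29 for Ect2, -0.22 to 0.14 for Myh6, -0.44 to 0.09 for Tnni3, -0.06 to 0.20 for Myh7, -0.01 to 0.12 for Nfkb1 and -1.29 to 0.22 for H2-K1.

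With the replicate block, 7 genes were called. The labels link a sham and an RVVO library only by their number. The deviations of libraries with the same number had r = -0.0631 over genes. With 2 libraries a group this value cannot decide whether such libraries share a litter or batch, which was not tested. Of the genes of dividing cells, 9 of 20 had enough UMIs to be tested, and whether depth or low transcription limited the others was not tested.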
